A study of Rattus norvegicus with 12 samples.

Results

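Described here is the route by which a heart muscle cell takes up glucose, stores it as glycogen, breaks it down to lactate or passes pyruvate to the mitochondria. A list of 39 rat genes defined it, and members were the rows of the transcript tables that carry these gene names. Of the 39, 38 were found among 32883 genes (Pfkfb4 is not analysed here), and 37 passed the filter on low values. The data are RNA sequencing libraries of cardiomyocytes from Sprague-Dawley rats 1 to 3 days old, 12 libraries in 6 groups of 2. Cells received an agonist for 24 h: its vehicle (acetic acid), endothelin-1 (ET-1, a peptide that acts on endothelin receptors) at 100 nM, or PE (phenylephrine, which acts on alpha-1 adrenergic receptors) at 10 µM. Each was given with DMSO, the vehicle of the antagonist, or with JQ1 at 1 µM, a small molecule that blocks the acetyl-lysine pockets of the BET proteins. The groups are called vehicle, ET-1, PE, vehicle+JQ1, ET-1+JQ1 and PE+JQ1. All cultures were plated in 7% serum and had been exposed to AraC (10 µM), which limits dividing cells, before treatment. The title of the study concerns P-TEFb, the kinase that releases paused RNA polymerase II, in the hypertrophy that these receptors induce. No label tells if replicates 1 and 2 came from different cultures or animals, so the p-values cover the spread between these libraries, which may be technical.

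Glucose enters through GLUT1 (Slc2a1), the carrier of most growing cells, and GLUT4 (Slc2a4), the insulin-responsive carrier of muscle and fat. Several steps from there on have a form that dominates in striated muscle and a more widely used one: Pfkm beside Pfkl and Pfkp, Pgam2 beside Pgam1, Eno3 beside Eno1, Pygm beside Pygb. The fetal heart relies on glycolysis and lactate, and the adult heart mostly on fatty acids, with a rise in muscle forms after birth. Hypertrophied hearts return in part to the fetal pattern, which is why isoform genes were compared in pairs.

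The promoters of 3 muscle forms that fell with JQ1 and of their widely used counterparts are shown because these 3 pairs had the greatest change in ratio with JQ1. Each is 300 bases from 250 before to 50 after the start of transcription, from RefSeq on build GRCr8, written 5′ to 3′ along the gene, with matches to ACGTG on either strand in capitals. Eno1 has 2 start sites in the table, and the more downstream one is shown.
Eno3 (chr10:55868936-55869235, plus strand): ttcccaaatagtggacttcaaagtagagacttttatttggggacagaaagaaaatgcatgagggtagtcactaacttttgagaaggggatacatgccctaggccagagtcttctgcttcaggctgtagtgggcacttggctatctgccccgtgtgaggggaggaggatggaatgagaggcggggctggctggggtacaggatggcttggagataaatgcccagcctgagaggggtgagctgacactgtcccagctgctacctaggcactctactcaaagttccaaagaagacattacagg
Eno1 (chr5:166003111-166003410, plus strand): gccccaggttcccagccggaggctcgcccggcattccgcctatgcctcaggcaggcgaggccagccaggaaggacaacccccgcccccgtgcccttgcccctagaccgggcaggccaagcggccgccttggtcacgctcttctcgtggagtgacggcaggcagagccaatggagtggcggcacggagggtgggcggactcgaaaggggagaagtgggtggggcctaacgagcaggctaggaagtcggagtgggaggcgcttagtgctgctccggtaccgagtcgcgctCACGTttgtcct
Pgam2 (chr14:84897825-84898124, minus strand): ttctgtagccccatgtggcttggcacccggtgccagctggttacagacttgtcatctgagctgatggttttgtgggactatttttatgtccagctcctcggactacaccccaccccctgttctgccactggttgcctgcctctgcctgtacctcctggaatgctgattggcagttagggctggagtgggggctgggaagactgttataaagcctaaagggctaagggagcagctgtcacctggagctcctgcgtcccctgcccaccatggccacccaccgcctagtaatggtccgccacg
Pgam1 (chr1:250672902-250673201, plus strand): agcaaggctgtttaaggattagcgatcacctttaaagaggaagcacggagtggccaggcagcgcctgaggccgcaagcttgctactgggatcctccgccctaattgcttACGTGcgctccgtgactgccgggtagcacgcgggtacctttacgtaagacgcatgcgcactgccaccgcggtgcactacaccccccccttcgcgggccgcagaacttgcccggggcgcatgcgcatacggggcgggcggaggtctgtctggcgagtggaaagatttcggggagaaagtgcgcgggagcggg
Pygm (chr1:213119555-213119854, plus strand): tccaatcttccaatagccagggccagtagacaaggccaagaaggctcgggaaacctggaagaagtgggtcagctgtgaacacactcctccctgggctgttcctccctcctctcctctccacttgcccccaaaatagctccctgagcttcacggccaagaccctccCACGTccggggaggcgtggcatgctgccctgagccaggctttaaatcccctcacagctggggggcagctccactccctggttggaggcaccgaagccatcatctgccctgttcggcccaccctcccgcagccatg
Pygb (chr3:160071891-160072190, plus strand): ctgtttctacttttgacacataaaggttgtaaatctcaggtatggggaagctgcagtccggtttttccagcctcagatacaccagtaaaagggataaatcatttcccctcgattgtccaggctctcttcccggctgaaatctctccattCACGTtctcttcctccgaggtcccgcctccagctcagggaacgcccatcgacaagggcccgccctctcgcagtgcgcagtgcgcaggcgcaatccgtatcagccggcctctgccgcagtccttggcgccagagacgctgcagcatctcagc

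The 3 muscle promoters held fewer CG pairs than their counterparts. Eno3 had 2, Pgam2 6 and Pygm 8, against 25 in the Eno1 window, 30 for Pgam1 and 18 for Pygb, with a median of 7 over 33469 promoter windows. Of the 38 members, 36 matched the promoter table (not Slc2a4 and Pgk1), with 40 windows in all. ACGTG, the core of the hypoxia response element, was searched on both strands. It was in 20 of the 40 windows (50%), against 19.3% of all windows and 24.1% of the 17132 windows within the members' range of GC content (50.3 to 73.3%). CACGTG, the E-box, contains ACGTG and was in 5 windows (12.5%) against 6.42% of all and 8.87% of those within the members' GC range. A pattern looser than the MEF2 core motif, with any bases allowed in its middle, was in 2 windows (5%), both of Aldoa, against 3.84% of all windows. In 1 of these windows the middle held G and C, so this is not a count of MEF2 sites. Other forms of the MEF2 site were not searched, so their presence or absence in these promoters was not tested. These shares describe letters in the windows, and factor binding was not measured.

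Levels are given as FPKM, fragments per kilobase of transcript normalised for the library's total, summed over each gene's transcripts and rescaled so that the typical gene is level across libraries. The deposited coverage came to 2.341 to 2.965 Gb (gigabases) per library. The cardiomyocyte markers were abundant, with 7 of 8 found and a summed level of 12520 to 25730 FPKM. All 9 fibroblast markers were found, and their sum was 510.6 to 1343 FPKM in the replicate 1 libraries against 110.5 to 327.3 in replicate 2. Within each replicate number it was lower with JQ1 in every treatment (214.2 to 1343 without and 110.5 to 664.6 with JQ1), and it was lower with ET-1 or PE than with vehicle in 8 of 8 matched pairs. The cardiomyocyte sum was higher with JQ1 in 6 of 6 pairs, and with the agonists in 6 of 8. Macrophage markers summed to 2.023 to 7.721 FPKM without JQ1 and 0.3589 to 3.169 with it, endothelial ones to 3.837 to 9.141, smooth muscle and mural ones to 380.8 to 848.2. The 5 skeletal muscle markers summed to 69.9 to 581.1 FPKM, nearly all from Ckm (64.5 to 577 FPKM), the muscle creatine kinase that heart muscle also expresses, while Myod1, which defines that lineage, was at 0 in all libraries. That sum was 403.2 to 581.1 with vehicle, 192.3 to 229.2 with ET-1 and 234.3 to 258.2 with PE, and with JQ1 273.5 to 411.3, 69.9 to 116.1 and 92.78 to 137.6, lower in 6 of 6 pairs with JQ1 and in 8 of 8 with an agonist. In all libraries the erythroid Alas2 was also at 0. The part of these other cells in the results on the isoform genes was not tested. In bulk RNA, fewer cells of a type and less RNA per cell cannot be told apart.

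The members were mostly abundant genes. By mean level over the 12 libraries Aldoa (809 FPKM), Ldhb (703), Ldha (435), Pdha1 (350.4) and Gpi (275) led, and Aldoa stood at the 99.4th percentile of genes tested. Near the low end were Pdk4 (3.72), Pfkfb3 (2.07) and Pfkfb1, which encodes a bifunctional regulator of phosphofructokinase known from liver and muscle and ranged from 0.0410 to 0.296 FPKM, under the filter of 1 FPKM in 2 libraries. Among isoforms, Hk1 made up 79.8 to 90.6% of the hexokinase FPKM and Aldoa 84.7 to 99% of the aldolase FPKM. The platelet-type gene Pfkp gave 44.8 to 79.7% of the phosphofructokinase FPKM. Eno3 spanned the widest range of an isoform, from 12.9 to 67.6% of the enolase FPKM.

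JQ1 lowered genes of glucose uptake and storage and the muscle forms Eno3, Pgam2 and Pygm. Some widely used forms (Slc2a1, Hk1, Eno1 and Pgam1) fell too. Several abundant glycolytic genes, Aldoa among them, rose by smaller factors than those muscle forms fell. In each test a gene was called when limma's adjusted p (Benjamini-Hochberg over 13793 genes) was under 0.05, and changes are differences of log2(FPKM + 0.5) ± SE. Averaged over the 3 treatments, 8 members rose and 19 fell. That is 73.0% of those tested, where 60.1% of all genes were called (30.2% higher and 29.9% lower), so being called was itself common. With libraries blocked by replicate number 28 members were called (75.7%, all genes 73.5%). The members' median was -0.32 against 0.02 for all genes. At least 2-fold lower were Eno3, Pgam2, Slc2a4, Gys1, Pygm, Pdk2 and Hk1, and no member was 2-fold higher. Within replicate numbers, 19 members were lower and 7 higher with JQ1 in all 6 matched pairs of libraries. Neither the 2-fold count nor this paired count was made over all genes, so neither can be set against a general share. The split of calls moved with the scaling. On the values as deposited 4 members rose and 20 fell, and scaled to the sum of genes with transcripts of at least 400 nt 4 rose and 22 fell, while the share of all calls that were higher went from 50.3% to 39.5% and 37.3%. No called member changed sign under either scaling.

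**Figure D1:**
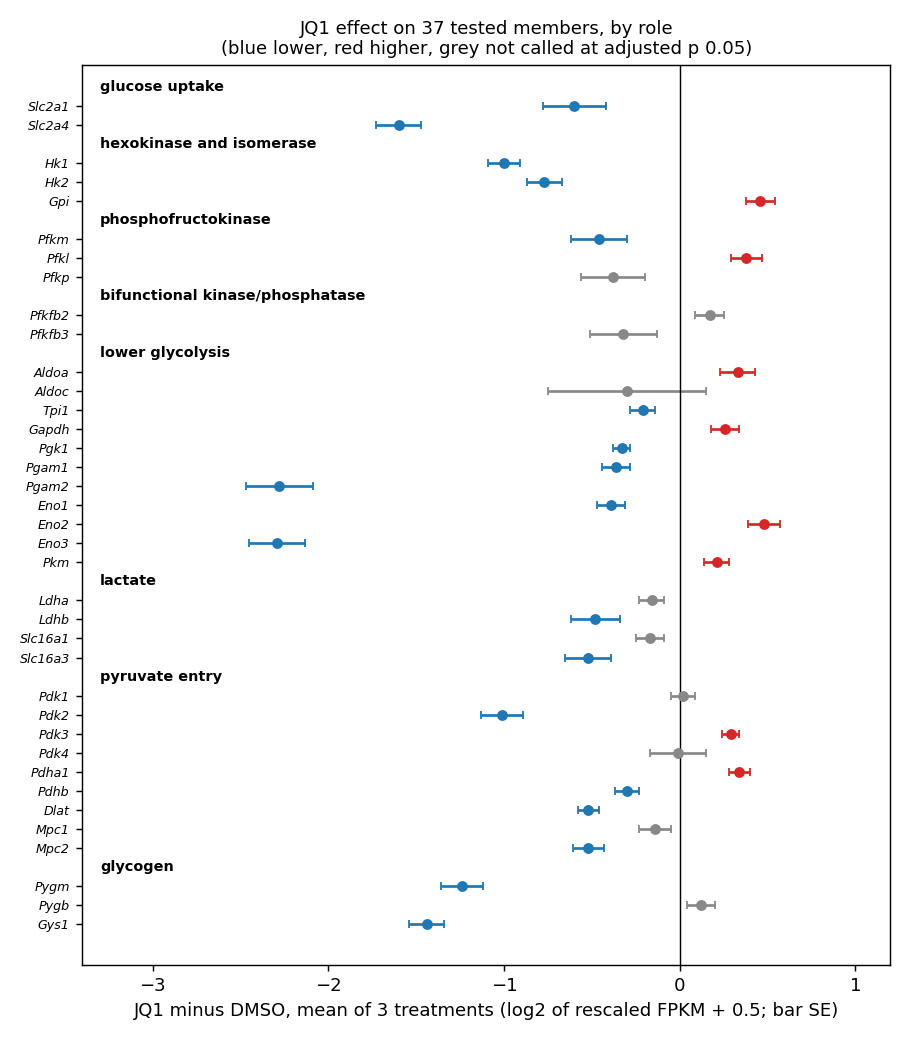
Change with JQ1 of the 37 tested members, as the mean of the vehicle, ET-1 and PE treatments (x axis, log2 difference with its SE), grouped by role. Eno3 and Pgam2 lie furthest to the left at about 5-fold lower, followed by Slc2a4, Gys1 and Pygm, and no member lies beyond 2-fold higher.

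Both glucose carriers fell with JQ1. Slc2a4 (ENSRNOG00000017226, chromosome 10, 56552983 to 56558487, minus strand; positions are on rn6) measured 33.6 and 40.2 FPKM with vehicle, 25.6 and 21.5 with ET-1 and 25.8 and 23.1 with PE. Levels of Slc2a4 with JQ1 were 8.24 and 12.6 with vehicle, 8.2 and 6.19 with ET-1 and 10.7 and 7.82 with PE. Every library with JQ1 was below every library without it, and the averaged change was -1.60 ± 0.13, adjusted p = 2.8e-05. Slc2a1 measured 34.5 and 49.6 FPKM with vehicle, 32.0 and 38.4 with ET-1 and 32.2 and 51.1 with PE. Slc2a1 in the JQ1 libraries stood at 22.3 and 32.9 with vehicle, 20.1 and 29.3 with ET-1 and 22.9 and 27.9 with PE. The 2 sets overlapped over all treatments because replicate 2 lay above replicate 1 in every group, but JQ1 lowered it in all 6 matched pairs (-0.60 ± 0.18, adjusted p = 0.018). Slc2a1 was not called in any single treatment without the replicate block, with adjusted p of 0.17, 0.21 and 0.12. With the block these were 0.0019, 0.0032 and 0.00095.

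Hexokinases, which trap glucose in the cell as its phosphate, fell too, and the next enzyme rose. Hk1 (ENSRNOG00000046891, chromosome 20, 31912262 to 31956649, minus strand) measured 102 and 111 FPKM with vehicle, 121 and 129.5 with ET-1 and 124 and 132 with PE. In combination with JQ1 the same gene measured 68.8 and 72.9 with vehicle, 62.9 and 47.3 with ET-1 and 61.6 and 47.4 with PE. The fall was called in all 3 treatments (-0.58 ± 0.16 in vehicle, -1.19 ± 0.16 in ET-1, -1.24 ± 0.16 in PE). The effect in ET-1 and in PE was greater than in vehicle by 0.61 and 0.66 on the log2 scale, but the difference did not pass (adjusted p = 0.99 and 0.87, unadjusted p = 0.027 and 0.019). Hk2, the insulin-regulated hexokinase of muscle, measured 15.4 and 16.0 FPKM with vehicle, 15.3 and 15.7 with ET-1 and 14.6 and 18.0 with PE. With JQ1, Hk2 measured 7.12 and 8.25 with vehicle, 8.88 and 11.9 with ET-1 and 8.2 and 10.8 with PE, below all libraries without JQ1 (-0.77 ± 0.10, adjusted p = 0.0003). Gpi, which converts glucose phosphate to fructose phosphate, measured 230.1 and 272 FPKM with vehicle, 215 and 215 with ET-1 and 219 and 231 with PE. Levels of Gpi with JQ1 were 356 and 407 with vehicle, 304 and 246 with ET-1 and 322 and 284 with PE and rose (0.46 ± 0.08, adjusted p = 0.0015), with every JQ1 library above its own DMSO group.

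**Figure D2:**
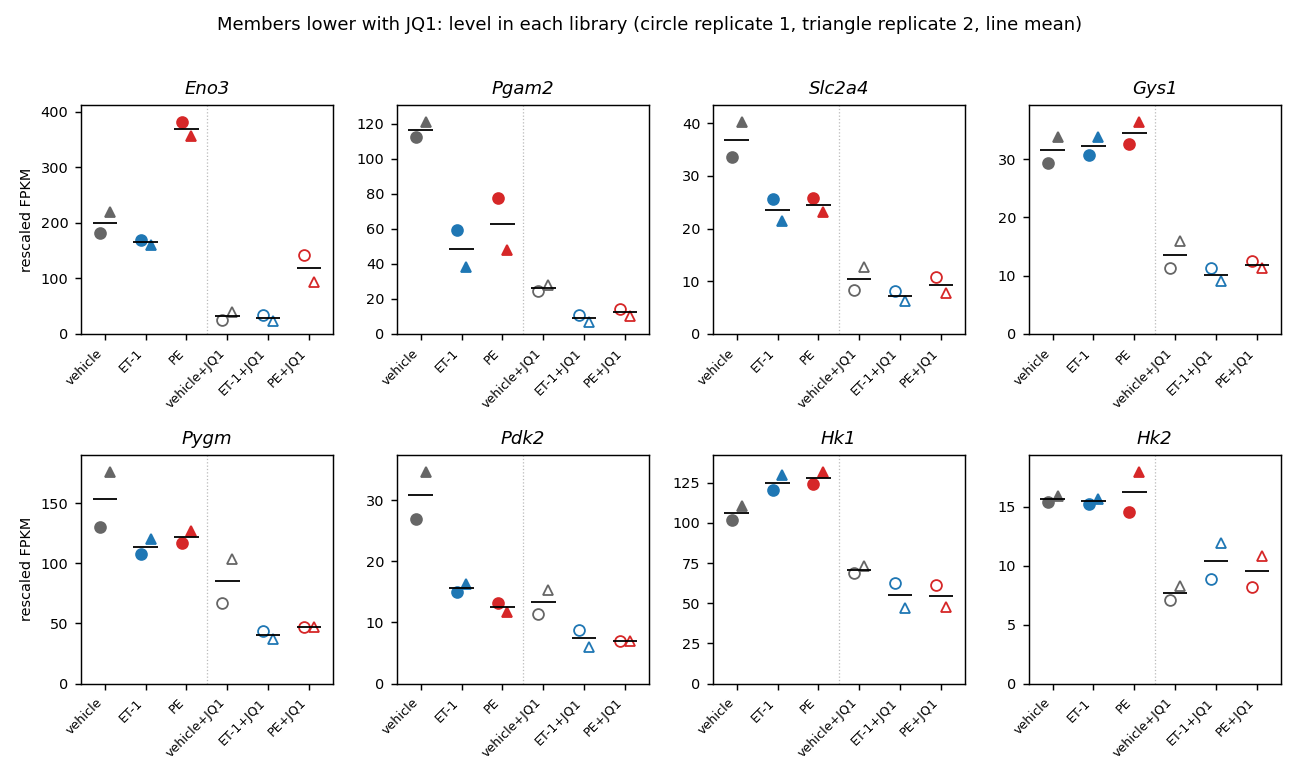
Level (rescaled FPKM, y axis from 0) of 8 members that fell with JQ1 in each of the 12 libraries by group, filled without and open with JQ1, with the group mean as a line. Open symbols lie below the filled ones of the same treatment in each panel, and the PE+JQ1 libraries of Eno3 (142.5 and 92.6 FPKM) lie above the other JQ1 libraries.

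Phosphofructokinase, the committed step, showed opposite moves among its 3 genes. The muscle gene Pfkm measured 90.8 and 116 FPKM with vehicle, 59.9 and 54.7 with ET-1 and 61.9 and 48.7 with PE. Pfkm in the JQ1 libraries stood at 77.2 and 83.7 with vehicle, 50.5 and 27.5 with ET-1 and 48.8 and 34.7 with PE, and the averaged fall was small (-0.46 ± 0.16, adjusted p = 0.041). That call was lost when any of 8 libraries was left out. Pfkl, the liver-type gene, measured 29.5 and 28.3 FPKM with vehicle, 30.8 and 30.3 with ET-1 and 31.1 and 37.1 with PE. In combination with JQ1 the same gene measured 45.2 and 40.0 with vehicle, 43.6 and 33.2 with ET-1 and 46.4 and 37.5 with PE and rose (0.38 ± 0.09, adjusted p = 0.0064), although on the values as deposited the change was 0.30 (adjusted p = 0.078) and with the longer-gene scaling 0.28 (adjusted p = 0.085). Pfkp, the most abundant of the 3, changed by -0.38 ± 0.18, adjusted p = 0.09, and was called lower in the blocked fit (adjusted p = 0.0009). The bifunctional enzymes that set fructose 2,6-bisphosphate, an activator of this step, were low: Pfkfb2 ranged from 5.18 to 7.88 and Pfkfb3 from 1.47 to 3.92 FPKM. Pfkfb2 was called higher with JQ1 in ET-1 in the blocked fit (0.38 ± 0.13, adjusted p = 0.036; 0.054 without the block) and in no other comparison, Pfkfb3 in none, and the share of each that was assigned to single transcripts varied widely between libraries.

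In lower glycolysis the muscle mutase and enolase had the greatest falls of the whole list. Eno3 (ENSRNOG00000004078, chromosome 10, 57278307 to 57283653, plus strand) measured 182 and 218 FPKM with vehicle, 169.7 and 161 with ET-1 and 381 and 357 with PE. With JQ1, Eno3 measured 24.5 and 39.1 with vehicle, 33.4 and 23.6 with ET-1 and 143 and 92.6 with PE. The fall was -2.67 ± 0.27, adjusted p = 0.00048 in vehicle, -2.53 ± 0.27 in ET-1 and -1.68 ± 0.27 in PE, and in each treatment both JQ1 libraries were below both DMSO libraries. Pgam2 (ENSRNOG00000013532, chromosome 14, 86044969 to 86047162, minus strand), the muscle phosphoglycerate mutase, measured 112 and 121 FPKM with vehicle, 59.4 and 38.0 with ET-1 and 77.7 and 47.9 with PE. Levels of Pgam2 with JQ1 were 24.3 and 27.7 with vehicle, 11 and 6.54 with ET-1 and 14.3 and 10.4 with PE, again with no overlap within any treatment (-2.28 ± 0.19, adjusted p = 2.4e-05). Eno1, the general enolase and counterpart of Eno3, measured 134 and 154 FPKM with vehicle, 176 and 208 with ET-1 and 168 and 213 with PE. Eno1 in the JQ1 libraries stood at 125 and 135 with vehicle, 136 and 137 with ET-1 and 131 and 131 with PE, a fall of much smaller size (-0.39 ± 0.08, adjusted p = 0.0032). Eno2, the enolase best known from neurons, measured 10.7 and 11 FPKM with vehicle, 13.5 and 15.2 with ET-1 and 14.3 and 19.6 with PE. In combination with JQ1 the same gene measured 16.1 and 16.7 with vehicle, 18.0 and 21.6 with ET-1 and 20.8 and 24.2 with PE, all above their own DMSO group (0.48 ± 0.09, adjusted p = 0.002).

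The other lower glycolytic genes moved by smaller factors. Aldoa, the main aldolase, went from 683 ± 96.6 to 890.0 ± 137 FPKM (mean ± SD, n = 2) in vehicle and rose in the average (0.33 ± 0.10, adjusted p = 0.023), as did Gapdh (0.26 ± 0.08, adjusted p = 0.025) and Pkm, pyruvate kinase (0.21 ± 0.07, adjusted p = 0.035). Tpi1 (-0.21 ± 0.07, adjusted p = 0.035), Pgk1 (-0.33 ± 0.05, adjusted p = 0.0011) and Pgam1 (-0.36 ± 0.08, adjusted p = 0.0065) fell. Leaving out any of 6 libraries ended the call of Aldoa, any of 7 that of Tpi1, any of 5 that of Gapdh and any of 9 that of Pkm. On the values as deposited Gapdh (0.17, adjusted p = 0.084) and Pkm (0.12, adjusted p = 0.41) did not pass either. Aldoc, the brain-type aldolase, differed by -0.30 ± 0.45, adjusted p = 0.59. Several of these genes (Gapdh, Aldoa, Pgk1, Pgam1, Eno1, Tpi1, Pkm, Ldha) have processed copies in the genome that can share their reads, so their values are uncertain to that extent. Pkm had 2 transcripts in the tables, and the shorter took 6.67 to 14.9% of its FPKM without and 9.01 to 19.1% with JQ1.

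Of the 4 lactate genes, the 2 called in the average fell. Ldhb, the heart-type lactate dehydrogenase, measured 799 and 1065 FPKM with vehicle, 765 and 715 with ET-1 and 776 and 731 with PE. With JQ1, Ldhb measured 685 and 937 with vehicle, 566 and 393 with ET-1 and 565 and 438 with PE (-0.48 ± 0.14, adjusted p = 0.017). The libraries overlapped between treatments, but each JQ1 library was below its matched DMSO library. Slc16a3 (ENSRNOG00000036677, chromosome 10, 110138586 to 110148358, plus strand), the carrier MCT4 that exports lactate from glycolytic cells, measured 14.3 and 20.6 FPKM with vehicle, 37.5 and 43.1 with ET-1 and 44.4 and 60.9 with PE. Levels of Slc16a3 with JQ1 were 13.9 and 18.0 with vehicle, 22.5 and 19.6 with ET-1 and 41.3 and 32.0 with PE, and the fall was called in the average (-0.52 ± 0.13, adjusted p = 0.01) and in ET-1 alone (-0.92 ± 0.23, adjusted p = 0.015). Ldha (-0.16 ± 0.07, adjusted p = 0.07) and Slc16a1, the carrier MCT1 (-0.17 ± 0.08, adjusted p = 0.094), were not called in the average. In PE with the replicate block limma called Ldha lower (-0.30, adjusted p 0.05 after rounding).

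At the entry of pyruvate into mitochondria, subunits of the pyruvate dehydrogenase complex changed in opposite directions. Pdk2 (ENSRNOG00000004172, chromosome 10, 82839153 to 82852660, minus strand), a kinase that switches the complex off, measured 27.0 and 34.6 FPKM with vehicle, 15.1 and 16.3 with ET-1 and 13.2 and 11.8 with PE. Pdk2 in the JQ1 libraries stood at 11.3 and 15.3 with vehicle, 8.77 and 6.03 with ET-1 and 6.98 and 7.0 with PE, a fall in all 3 treatments (-1.01 ± 0.12, adjusted p = 0.00014). Pdha1, the catalytic E1 alpha subunit that these kinases phosphorylate, measured 226 and 237 FPKM with vehicle, 299 and 354 with ET-1 and 358 and 399 with PE. In combination with JQ1 the same gene measured 353 and 342 with vehicle, 402 and 389.5 with ET-1 and 428 and 418 with PE and rose in the average (0.34 ± 0.06, adjusted p = 0.0019) and in vehicle (0.59 ± 0.11, adjusted p = 0.0055), while in ET-1 and in PE it was not called (0.28 ± 0.11 and 0.16 ± 0.11), except in ET-1 with the replicate block (adjusted p = 0.04). Dlat, the E2 core subunit, measured 96.5 and 109 FPKM with vehicle, 101 and 113 with ET-1 and 109 and 119.6 with PE. With JQ1, Dlat measured 74.1 and 79.2 with vehicle, 71.2 and 72.1 with ET-1 and 76.8 and 78.0 with PE, with no overlap (-0.52 ± 0.06, adjusted p = 9.7e-05). Mpc2, a subunit of the mitochondrial pyruvate carrier, measured 285 and 316 FPKM with vehicle, 304 and 307 with ET-1 and 294 and 340.4 with PE. Levels of Mpc2 with JQ1 were 199 and 278 with vehicle, 194 and 215 with ET-1 and 202 and 208 with PE and fell (-0.52 ± 0.09, adjusted p = 0.0016). Pdhb, the E1 beta subunit, fell (-0.30 ± 0.07, adjusted p = 0.0069) and Pdk3, another of the kinases, rose (0.29 ± 0.05, adjusted p = 0.0017; on the values as deposited 0.22, adjusted p = 0.059). Mpc1 (-0.14 ± 0.09), Pdk1 (0.02 ± 0.07) and Pdk4 (-0.01 ± 0.16), the fasting-induced kinase, were not called (adjusted p from 0.22 to 0.97).

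The muscle genes of glycogen synthesis and glycogen breakdown both fell with JQ1. Gys1 (ENSRNOG00000020812, chromosome 1, 101427195 to 101447092, plus strand), the muscle glycogen synthase, measured 29.4 and 33.7 FPKM with vehicle, 30.7 and 33.9 with ET-1 and 32.7 and 36.4 with PE. Gys1 in the JQ1 libraries stood at 11.3 and 15.9 with vehicle, 11.4 and 9.0 with ET-1 and 12.6 and 11.3 with PE, no more than 15.9 FPKM in any JQ1 library and no less than 29.4 in any other (-1.44 ± 0.10, adjusted p = 1.1e-05). Pygm (ENSRNOG00000021090, chromosome 1, 221756286 to 221771143, plus strand), the muscle glycogen phosphorylase whose loss causes McArdle disease, measured 130.4 and 176 FPKM with vehicle, 108 and 120.0 with ET-1 and 117 and 127 with PE. In combination with JQ1 the same gene measured 67.2 and 104 with vehicle, 43.6 and 36.8 with ET-1 and 46.7 and 47.2 with PE, below every DMSO library (-1.24 ± 0.12, adjusted p = 6.6e-05). Pygb, the brain-type phosphorylase, measured 87.6 and 109 FPKM with vehicle, 60.2 and 63.1 with ET-1 and 58.1 and 59.5 with PE. With JQ1, Pygb measured 102 and 115 with vehicle, 71.7 and 57.7 with ET-1 and 67.9 and 62.8 with PE and was not called (0.12 ± 0.08, adjusted p = 0.22). Reads of Pygb are uncertain, because 4237 bases of it lie opposite Abhd12 (mean 19.9 FPKM) and whether the counting used strand is not stated in these sources.

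Within single treatments JQ1 called 5 members higher and 9 lower in vehicle (37.8% of members, 32.0% of all genes, 15.3% higher and 16.7% lower). In ET-1 0 were higher and 14 lower (37.8%, all genes 37.5%, 17.9% and 19.6%) and in PE 2 and 12 (37.8%, all genes 36.5%, 17.5% and 19.0%). Over both directions together, the shares called are close to those of all genes. By direction they differed in ET-1 and in PE with this scaling. There the members' calls were mostly or all lower, where those of all genes were split nearly evenly. Called in all 3 treatments were Slc2a4, Hk1, Hk2, Pgam2, Eno3, Pdk2, Dlat, Pygm and Gys1, 9 in all, each of them lower. The share of all genes called in all 3 treatments was not counted. With the replicate block the counts in vehicle, ET-1 and PE were 20, 23 and 24 members, against 52.8%, 56.9% and 56.4% of all genes. Slc2a1 and the following were called by limma with the block alone, given as log2 change and then blocked adjusted p. In vehicle these were Aldoa (0.38, 0.0089), Gapdh (0.32, 0.039) and Pkm (0.27, 0.033), which rose, and Pgam1 (-0.24, 0.049) and Mpc2 (-0.35, 0.036), which fell. In ET-1, Aldoa (0.26, 0.038) and Eno2 (0.45, 0.0052) rose with Pfkfb2 and Pdha1, and Pfkp (-0.42, 0.014), Pgam1 (-0.43, 0.0039), Ldhb (-0.65, 0.048) and Pdhb (-0.35, 0.035) fell. In PE, Aldoa (0.33, 0.015), Gapdh (0.34, 0.029) and Eno2 (0.41, 0.0081) rose. Those that fell in PE were Pfkp (-0.51, 0.0059), Tpi1 (-0.34, 0.04), Pgam1 (-0.41, 0.005), Pdhb (-0.36, 0.034), Mpc1 (-0.28, 0.041) and Ldha (-0.30, 0.05 after rounding). Without vehicle replicate 1 or vehicle+JQ1 replicate 1 the count in vehicle was 9 or 8. Without ET-1 replicate 2 or ET-1+JQ1 replicate 2 that in ET-1 was 8 or 9, and without PE replicate 2 or PE+JQ1 replicate 1 that in PE was 9 or 8.

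The balance between isoform genes was examined as 8 log2 ratios, in which the scaling of a library largely cancels, with an exact two-sided permutation test over the libraries within each treatment (smallest possible p 0.0093) and adjustment over the 8 ratios. With JQ1, 5 ratios moved, all toward the widely used or glycolytic form and all lower in 6 of 6 matched pairs. Eno3 to Eno1 was 0.44 and 0.50 in vehicle and -2.33 and -1.78 with JQ1, -0.05 and -0.37 and -2.01 and -2.51 in ET-1, and 1.18 and 0.74 and 0.13 and -0.49 in PE. The mean difference was -1.91 (exact permutation test, adjusted p = 0.025). Pgam2 to Pgam1 differed by -1.92 (adjusted p = 0.025), Pygm to Pygb by -1.36 (adjusted p = 0.025), Slc2a4 to Slc2a1 by -1.01 (adjusted p = 0.03) and Ldhb to Ldha by -0.32 (adjusted p = 0.03) in the same exact permutation test. Pygm to Pygb was 0.57 to 1.09 in the 6 DMSO libraries and -0.71 to -0.14 in the JQ1 libraries, so Pygm exceeded Pygb in all of the first and in none of the second. Hk2 to Hk1 (0.24), Pfkm to Pfkl plus Pfkp (-0.21) and Aldoa to Aldoc (0.63) did not pass (adjusted p from 0.36 to 0.44). Aldoa to Aldoc was nonetheless higher with JQ1 in 6 of 6 pairs, and permuted within replicate numbers (smallest possible p 0.031) it passed together with the 5 ratios above, each at an adjusted p of 0.042 by the exact permutation test. Without ET-1 replicate 1, PE replicate 1, ET-1 replicate 2 or PE+JQ1 replicate 2, 3 ratios passed in place of 5.

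**Figure D3:**
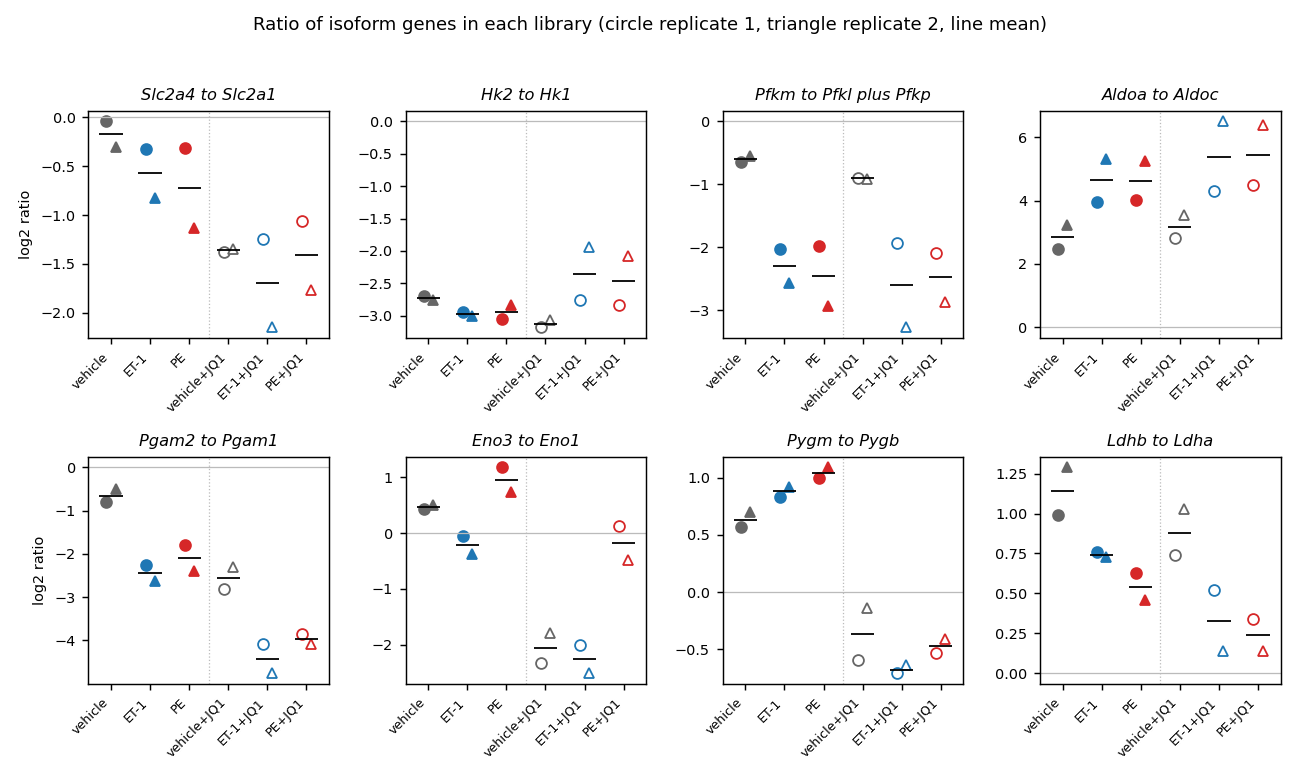
The 8 log2 ratios between isoform genes (y axis) in each library by group, filled without and open with JQ1, with the group mean as a line. Pygm to Pygb is above 0 in all filled and below 0 in all open symbols, while Pfkm to Pfkl plus Pfkp separates the vehicle groups (-0.91 to -0.55) from the agonist groups (-3.27 to -1.93).

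The agonists changed fewer members than JQ1, and ET-1 and PE share their vehicle libraries, so their values are given side by side. With ET-1, 1 member rose and 1 fell (5.41% of members, with 2.87% of all genes called, 1.31% higher and 1.57% lower). With PE 2 rose and 2 fell (10.8%, all genes 6.07%, 2.89% and 3.18%). With the replicate block 11 and 13 were called (29.7% and 35.1%), against 18.4% and 24.0% of all genes. Scaling mattered here as well: scaled to the sum of longer genes the median of all genes moved from -0.02 to -0.14 with ET-1 and from -0.01 to -0.15 with PE. The share of calls that were higher went from 45.5% to 28.8% with ET-1 and from 47.6% to 25.5% with PE, with members at 1 higher and 2 lower for ET-1 and 4 higher and 2 lower for PE. On the values as deposited ET-1 called no member and PE 4 higher and 2 lower. Leaving out vehicle replicate 1, vehicle replicate 2 or PE replicate 2 ended all 4 calls with PE, and without PE replicate 1 there was 1. The ET-1 calls were 0 without any one of the vehicle, ET-1, PE, vehicle+JQ1 or PE+JQ1 libraries.

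The lactate exporter Slc16a3, whose values are given above, rose with both agonists (1.2 ± 0.23, adjusted p = 0.04 with ET-1 and 1.57 ± 0.23, adjusted p = 0.013 with PE). The vehicle libraries held 14.3 and 20.6 FPKM and all 4 agonist libraries without JQ1 at least 37.5. In vehicle replicate 1 its reads were assigned to another transcript (100%) than in the remaining libraries (at most 0.281%), of nearly the same length (2118 against 2077 nt). Pygb fell with both (-0.66 ± 0.14, adjusted p = 0.047 and -0.72 ± 0.14, adjusted p = 0.026), from 87.6 and 108.5 FPKM to between 58.1 and 63.1. Pdha1 rose and Pdk2, its kinase, fell with PE (0.71 ± 0.11, adjusted p = 0.015 and -1.26 ± 0.20, adjusted p = 0.016). With ET-1 the same 2 genes had changes of 0.49 ± 0.11 (adjusted p = 0.057, when blocked 0.015) and -0.94 ± 0.20 (adjusted p = 0.051, when blocked 0.018). For both genes the vehicle libraries did not overlap those of either agonist.

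**Figure D4:**
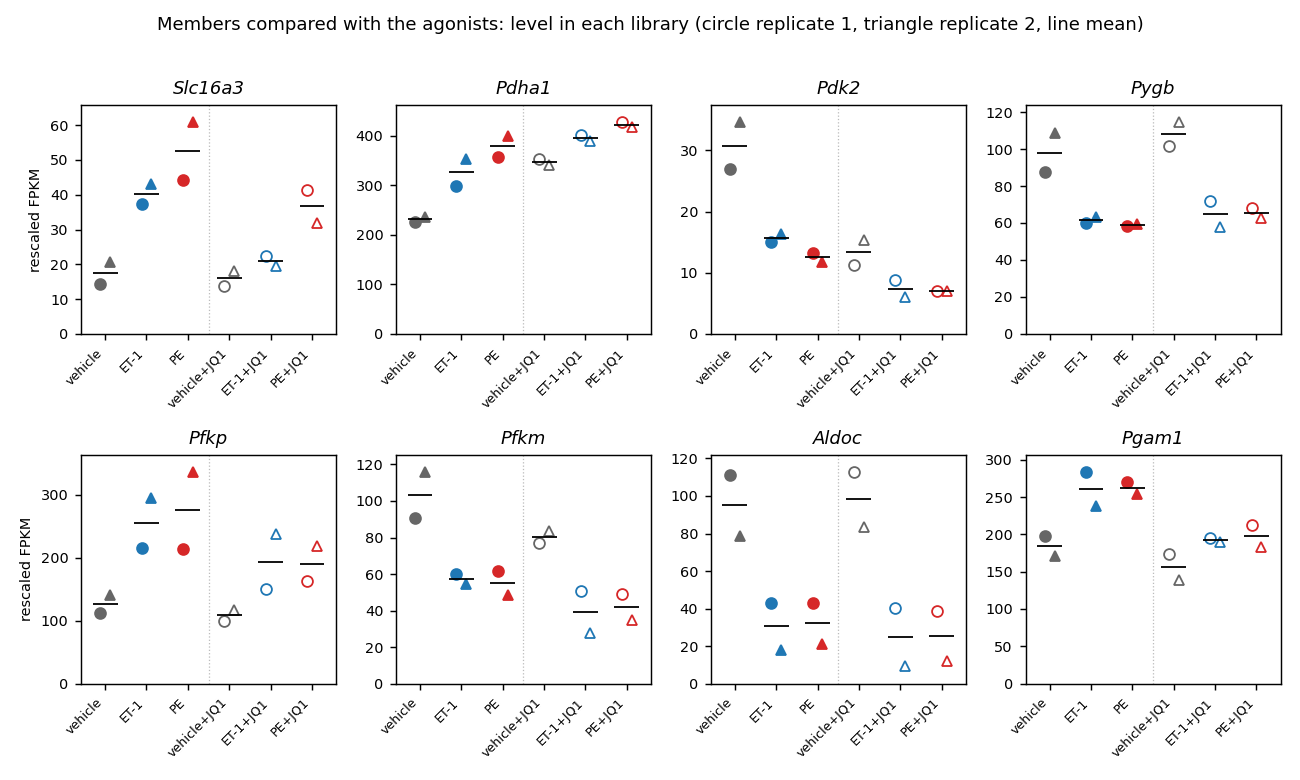
Level (rescaled FPKM, y axis from 0) of 8 members in each library by group, filled without and open with JQ1, with the group mean as a line. Slc16a3 and Pfkp are higher and Pdk2, Pygb, Pfkm and Aldoc lower in the ET-1 and PE libraries than in the vehicle libraries without JQ1; Pfkp, Pfkm, Aldoc and Pgam1 were called with the agonists only in the blocked fit.

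Further members were called with an agonist in the fit with the replicate block alone: Pfkp, Pfkm, Aldoc, both mutases, Eno1, Eno2, Tpi1 and Mpc1. Pfkp went from 127 ± 20.5 FPKM in vehicle to 256 ± 56.4 with ET-1 and 275 ± 86.1 with PE (mean ± SD, n = 2). The change was 1.00 ± 0.30 and 1.09 ± 0.30, with adjusted p of 0.12 and 0.075 without and 0.0023 and 0.0013 with the block. The values for Pfkm were -0.84 ± 0.29 with ET-1 (adjusted p = 0.16, and 0.055 when blocked) and -0.90 ± 0.29 with PE (adjusted p = 0.11, and 0.037 when blocked). Aldoc went from 94.9 ± 22.7 to 30.5 ± 17.5 and 32.0 ± 15.1, a change of -1.73 ± 0.77 and -1.61 ± 0.77 with adjusted p of 0.26 and 0.26, and of 0.016 and 0.017 in the blocked fit. Its replicate 2 value was lower than its replicate 1 value in every group. Pgam2 (-1.28 and -0.93) was lower and Pgam1 (0.50 and 0.51), Eno1 (0.41 and 0.39), Eno2 (0.38 and 0.60) and Mpc1 (0.36 and 0.36) were higher with ET-1 and PE in that fit. Tpi1 was called higher with PE (0.43). Hk1, Hk2, Slc2a1, Slc2a4, Gys1 and Pygm, which fell with JQ1, were not called with either agonist in the absence of JQ1 in either fit. Among these, the ET-1 and PE libraries of Slc2a4 (-0.64 and -0.58) and Pygm (-0.41 and -0.31) all lay below the vehicle libraries. Those of Hk1 (0.23 and 0.27) all lay above.

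Across isoforms, 4 of the 8 ratios differed between the agonist and vehicle libraries, each in 8 of 8 matched pairs, in an exact two-sided permutation test within DMSO and within JQ1 that pooled ET-1 and PE (smallest possible p 0.0044). Pfkm to Pfkl plus Pfkp was -0.64 and -0.55 in vehicle, -2.03 and -2.56 with ET-1 and -1.98 and -2.93 with PE, and with JQ1 -0.90 and -0.91, -1.93 and -3.27 and -2.09 and -2.86. The mean difference was -1.71 (exact permutation test, adjusted p = 0.012), with the muscle gene's share at this step lower after the agonists with and without JQ1. Pgam2 to Pgam1 differed by -1.62 and Ldhb to Ldha by -0.55 (exact permutation test, adjusted p = 0.012 for both). Aldoa to Aldoc differed by 2.0 (exact permutation test, adjusted p = 0.018), a call that was lost without vehicle replicate 1 or vehicle+JQ1 replicate 1. Eno3 to Eno1 (0.37), Pygm to Pygb (0.06), Hk2 to Hk1 (0.24) and Slc2a4 to Slc2a1 (-0.33) did not pass (adjusted p from 0.32 to 0.64). Without JQ1, Eno3 to Eno1 moved in opposite directions, with a mean of 0.47 in vehicle, -0.21 with ET-1 and 0.96 with PE. Under JQ1 its means were -2.05, -2.26 and -0.18, so the pooled 0.37 describes neither agonist. The mutase and lactate dehydrogenase ratios were thus lower both with JQ1 and with the agonists.

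No member was called between PE and ET-1 by limma, with or without the block (0.00725% of all genes called), and 1 member had an unadjusted p under 0.05 (2.7% of members, 1.49% of all genes). That gene was Eno3, at 381 and 357 FPKM with PE against 169.7 and 160.5 with ET-1, a difference of 1.16 ± 0.27 (unadjusted p = 0.0029, adjusted p = 1, with the block 0.77). The PE libraries did not overlap those of ET-1, and the same order was seen with JQ1 (142.5 and 92.6 against 33.4 and 23.6). Eno3 is singled out here after its values were seen.

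Under JQ1 the agonists called 1 member each. Eno3 rose with PE (1.88 ± 0.27, adjusted p = 0.041), where 0.718% of all genes were called, 0.384% higher and 0.334% lower. Pygb fell with ET-1 (-0.74 ± 0.14, adjusted p = 0.047), where 1.36% of all genes were called, 0.319% higher and 1.04% lower. With the block 11 and 8 members were called (29.7% and 21.6%, against 12.1% and 11.6% of all genes). Slc16a3 under JQ1 was higher with PE by 1.18 ± 0.23 (adjusted p = 0.071, with the block 0.016). Pygm under JQ1 differed by -1.05 ± 0.21 with ET-1 and -0.82 ± 0.21 with PE (adjusted p = 0.059 and 0.12, with the block 0.013 and 0.029). Also called with the block alone were Pfkm (-1.10 with ET-1 and -0.96 with PE), Aldoc (-2.27 and -2.13), Pgam2 (-1.56 and -1.06) and Pdk2 (-0.81 and -0.87), all lower, and Pfkp (0.80 and 0.80), higher. With ET-1 Hk2 (0.40) was added, and with PE Pgam1 (0.34), Eno2 (0.44) and Pygb (-0.72); the blocked adjusted p of these genes lay between 0.0076 and 0.047. Leaving out single libraries took the count to 0 in most cases and at most to 3 with ET-1 (without ET-1+JQ1 replicate 1) and 2 with PE (without either ET-1+JQ1 library). On the values as deposited neither gene passed (adjusted p = 0.081 for Pygb and 0.064 for Eno3).

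Whether JQ1 acted differently in agonist-treated cells was tested as an interaction, and limma called 0 members (0.00% of all genes for ET-1 and for PE). With the replicate block it also called 0 members, where 0.0363% and 0.0725% of all genes were called. At an unadjusted p under 0.05 there were 3 members for ET-1 (Hk1, Tpi1 and Slc16a3) and 4 for PE (Hk1, Tpi1, Eno3 and Pdha1), which is 8.11% and 10.8% of members, against 4.47% and 5.2% of all genes. Slc16a3 had -0.80 ± 0.33 for ET-1, which is a greater fall with JQ1 after ET-1 than in vehicle, with an adjusted p of 1. Eno3 had 0.99 ± 0.39 for PE, a smaller fall with JQ1 after PE, with an adjusted p of 0.95.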

How the data were processed

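RNA was column-purified with DNase treatment, depleted of ribosomal RNA and made into stranded libraries, per the labels' protocols. The submitters' processing notes name the build rn6 and, in no stated role, StringTie 1.3.4d, STAR 2.7.1a, DESeq2 1.24.0 and Trim Galore 0.6.0. The authors' deposited tables give each of 41078 transcripts an FPKM and a mean per-base coverage, per the file headers; coverage served only for depth. Gene sums of FPKM were divided by size factors (median of ratios over 15551 genes, 0.873 to 1.127). Genes at 1 FPKM or more in at least 2 libraries (13793) were tested with limma 3.58.1 (R 4.3.3; trended, robust) on log2(FPKM + 0.5), with 6 group means and no block. The pseudocount understates changes of low genes. Ratios were tested in Python 3.11.15. Both tests were also run on simulated data. Those for the ratio test held no deviation shared by same-numbered libraries, unlike the real data.

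Same-numbered libraries deviated together in all 15 pairs of groups (correlation 0.16 to 0.67), so the numbers were taken as pairs; the labels do not state this, and the blocked fit is given where it changes a member's call. Members and lists were chosen with earlier results of these data known. The members given per library are the 20 with the greatest change in a comparison that called them. Proteins were not used here. Replicates differed by a median of 0.160 to 0.211 (log2), so none is a copy. RefSeq promoters are on GRCr8, gene positions on rn6.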

Additional observations from a re-analysis of the deposited data

How the results depend on the processing

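No called gene or ratio changed direction under any alternative. Some results that were not called did, such as Aldoc with JQ1 averaged (-0.63 to 0.03 with single libraries left out). With the replicate block the members called were 11 for ET-1, 13 for PE, 23 and 24 for JQ1 in ET-1 and in PE, and 8 and 11 for ET-1 and PE under JQ1; the same pairing moved no other count by over 1.5 times. On the values as deposited ET-1 called 0, and ET-1 and PE under JQ1 0 each, which also held without the filter on low values. Scaled to longer genes ET-1 and PE under JQ1 called 0 each, and a pseudocount of 0.1 left 1 with ET-1. Fitting the compared libraries alone gave 0 for ET-1, PE, and both under JQ1, and 9 for JQ1 in ET-1 and in PE, with fewer samples to set the spread; it was not run for the averaged effect, which uses all groups. Left-out libraries gave 0 to 2 members for ET-1, 0 to 5 for PE, 0 for PE against ET-1, 8 to 14, 8 to 15 and 8 to 15 for JQ1 in vehicle, ET-1 and PE, 22 to 27 for its average, 0 to 3 and 0 to 2 for ET-1 and PE under JQ1, and 0 for both interactions. With the block as well they gave 1 to 12, 4 to 15, 0, 14 to 20, 16 to 23, 16 to 23, 26 to 31, 0 to 10 (ET-1 under JQ1, 6 without either PE+JQ1 library), 1 to 11 (PE under JQ1, 7 without PE replicate 1, PE replicate 2 or ET-1 replicate 2) and 0. Ratios passing were 3 to 5 for JQ1 and 3 to 4 for the agonists. Of 27 members called in the average, 22 stayed called without any single library. The share of all called genes that stay called in this way was not counted. Of 539 results on single genes or ratios under alternatives with all libraries, 57 lost the call and 482 kept it. Depth in reads is not given by FPKM, and 2 libraries a group limit the precision.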

Other observations

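Genes of neighbouring pathways were counted from lists of the wider route, of which none is a test of the pathway. In glycogen turnover 22 of 26 listed genes were tested, and with JQ1 averaged over the treatments 5 rose and 7 fell (median -0.04, all genes 0.02, 60.1% of them called). Ppp1r3a, a muscle subunit that targets protein phosphatase 1 to glycogen, fell (-1.28 ± 0.06, adjusted p = 3.1e-06), as did the related Ppp1r3b (-1.19 ± 0.14, adjusted p = 0.00014). Pygl, the liver phosphorylase, also fell (-1.31 ± 0.16, adjusted p = 0.00017), from a low mean level of 0.645 FPKM. Of the same 22 genes, 0 were called with ET-1 (2.87% of all genes called), and 2 rose and 0 fell with PE (6.07%). With PE, Gyg1, the glycogenin that primes new glycogen (mean 680 FPKM), rose (0.63 ± 0.13, adjusted p = 0.032). Of the malate-aspartate shuttle, which moves reducing equivalents from glycolysis into mitochondria, 4 of 7 genes fell with JQ1 and none rose (median -0.50): Mdh1 (-0.73), Slc25a13 (-0.72), Got2 (-0.56) and Slc25a12 (-0.50). The pentose phosphate pathway had 1 of 6 called, Taldo1 (0.57 ± 0.06, adjusted p = 9.2e-05), which rose, and with the block Tkt (0.11, adjusted p = 0.023 by limma) was added.

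For the JQ1 counts below, averaged over the treatments, the share of all genes called was 60.1%, or 73.5% with the replicate block. Of 7 other carriers tested, 1 rose and 2 fell with JQ1: Slc2a13, a myo-inositol carrier, rose (1.45 ± 0.08, adjusted p = 4.5e-06), Slc2a3, GLUT3, fell (-1.0 ± 0.21, adjusted p = 0.0037) and Slc2a12 fell (-0.52). Among 9 other enzymes 5 rose and 2 fell, led by Pc, pyruvate carboxylase (0.96 ± 0.05, adjusted p = 4.5e-06), Ldhd, the D-lactate dehydrogenase (-0.74 ± 0.12, adjusted p = 0.001), and Adpgk (0.68). Pdhx, which tethers E3 in the pyruvate dehydrogenase complex, fell (-0.51 ± 0.06, adjusted p = 0.0001), the 1 of 5 further complex genes called; with the replicate block Dld, Pdp1 and Pdp2 were also called lower, 4 in all. Of the same 5 genes, 0 rose and 1 fell with ET-1 (2.87% of all genes called), and 1 rose and 1 fell with PE (6.07%). Pdp1, the phosphatase that switches the complex on, fell with ET-1 (-0.60 ± 0.12, adjusted p = 0.042) and PE (-0.56 ± 0.12, adjusted p = 0.034). Among 23 regulators, 6 rose and 7 fell with JQ1, where 60.1% of all genes were called. Txnip, an inhibitor of glucose uptake, rose (1.28 ± 0.18, adjusted p = 0.00042), as did Foxo3 (1.04 ± 0.05, adjusted p = 2e-06) and Epas1 (0.65), while Ppargc1a, a coactivator of mitochondrial genes, fell (-0.62 ± 0.09, adjusted p = 0.00038). Of the same 23 regulators, 0 rose and 3 fell with ET-1 (2.87% of all genes called), and 1 rose and 4 fell with PE (6.07%). Among them Hif1a fell with both agonists (-0.70 ± 0.07, adjusted p = 0.012 for ET-1 and -0.63 ± 0.07, adjusted p = 0.0096 for PE). Of 12 other HIF targets none was called with ET-1 or PE by limma. With the replicate block 1 rose and 2 fell with ET-1 (18.4% of all genes called), and 1 rose and 3 fell with PE (24.0%).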
